A study of Mus musculus with 12 samples.

Results

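Transcript levels of 9 enzyme genes of the tricarboxylic acid (TCA) cycle were followed across 12 mouse lung tumors. The genes were Cs, Idh2, Idh3a, Idh3b, Idh3g, Ogdh, Dlst, Fh1 and Mdh2, taken by their symbols from the deposited count table, in which they are 9 of 39017 listed genes. No member passed the threshold of 0.05 on the adjusted p-value of edgeR's quasi-likelihood test in any of the 7 comparisons. The clearest difference lay at the isocitrate step. Idh2 was lower in all 6 tumors from mice on doxycycline than in all 6 from mice on regular diet, at a fold of 0.733, while Idh3a averaged 1.69-fold higher on doxycycline with an overlap between the diets.

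The TCA cycle runs in the mitochondrial matrix, where it oxidizes the acetyl group of acetyl-CoA and yields reducing equivalents for the respiratory chain. Citrate synthase joins acetyl-CoA with oxaloacetate, isocitrate and 2-oxoglutarate are oxidized in turn with release of carbon dioxide, and fumarate hydratase and malate dehydrogenase close the circle. Its intermediates also leave the cycle as building blocks for lipids and amino acids, which growing tumor cells need, and they can be replenished from glutamine. All members are encoded in the nucleus, and their proteins are imported into mitochondria.

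All mice had a C57BL6/J background and carried K-rasLSL-G12D/WT, p53Fl/Fl and CCSP-rtTA. KPG1 mice carried Glut1Fl/Fl in addition, that is, floxed alleles of the glucose transporter gene Slc2a1. All of them, controls included, were given 6000 viral units of Lenti.TRE-PPARaD13_PGK-Cre through the trachea, so every tumor was started by Cre from this vector and could hold its doxycycline-inducible dominant negative form of PPARα, a nuclear receptor that switches on genes of fatty acid oxidation. Mice of the groups labelled KP_PPARaDN and KPG1_PPARaDN ate a diet with doxycycline at 625 mg/kg for 15 days, and mice of the groups labelled KP and KPG1 ate a regular diet. Lung tumors were dissected 26 weeks after initiation, and RNA was taken from the cells left after CD45-positive cells had been removed on magnetic beads. Each group had 3 tumors, from 2 KP, 3 KP_PPARaDN, 2 KPG1 and 2 KPG1_PPARaDN mice by a number in the labels that was read as the mouse. The effect of the doxycycline diet and that of the induced transgene cannot be told apart, because no group had one without the other. The CCSP promoter that drives rtTA is a club cell promoter, which limits the induction to cells in which it is active. The KP tumors were all from females and the KPG1 tumors all from males, while KP_PPARaDN had 1 female and 2 males and KPG1_PPARaDN 2 females and 1 male. On regular diet, sex and genotype therefore cannot be told apart.

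Total counts were between 25263794 and 32654223 per tumor, and the members together took 0.107% to 0.149% of them. The 5 pan-epithelial markers summed to at least 2444 CPM, counts scaled to the TMM-normalized library size, and the 6 markers of alveolar type 2 cells to at least 22588 CPM in every tumor, whereas the leukocyte markers summed to 26.5 to 61.6 CPM. Ppara counts do not follow the labels in every tumor. They were 2.71, 64.6 and 246 CPM in the KP_PPARaDN tumors and 8.90, 19.2 and 17.7 CPM in the KPG1_PPARaDN tumors, against 7.24 to 15.7 CPM on regular diet, so the first library labelled KP_PPARaDN had the lowest level of all. Slc2a1 was at 35.3 to 57.7 CPM in KP, 30.2 to 64.0 CPM in KPG1 and 23.7 to 54.5 CPM in KPG1_PPARaDN tumors, and at 153, 115 and 108 CPM in the KP_PPARaDN tumors, above all others. Its log2 fold change with doxycycline in KP was 1.48 ± 0.36 (SE, adjusted p = 0.289), and counts over a whole gene do not check the loss of a floxed part. In bulk samples, fewer cells of a type and less RNA per cell cannot be told apart.

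The members lie on 9 chromosomes of build mm10, and all are annotated by GENCODE M21 as protein-coding. Idh2 (ENSMUSG00000030541) spans chr7:80094846-80115392 on the minus strand and Idh3g (ENSMUSG00000002010) chrX:73778963-73786897 on the minus strand. Idh3a (ENSMUSG00000032279) lies at chr9:54586334-54604661 and Ogdh (ENSMUSG00000020456) at chr11:6291633-6356642, both on the plus strand. Cs spans chr10:128337734-128362479, Dlst chr12:85110833-85134845 and Mdh2 chr5:135778480-135790398 on the plus strand, and Idh3b chr2:130279309-130284547 and Fh1 chr1:175600374-175625635 on the minus strand. Reads of 4 members could be shared with another gene, since Idh3b overlaps Nop56 and Fh1 overlaps Kmo on the opposite strand, Cs holds Gm23182 and Idh2 overlaps ENSMUSG00000108494 on its own strand, and whether strand was used in counting is not given in the sources used here. The values of these members are uncertain to that degree. RefSeq promoter windows of GRCm38.p6, which reach from 250 bases before to 50 after a start, matched 8 of 9 members, all but Idh3a. Their GC content was 49.3% to 72.3%, with a median of 52.7% over all promoters. The 250 bases before the start are printed for Idh2 and Idh3g, whose groups stood apart in KPG1 tumors, and for a start of Ogdh that holds a searched motif, in capitals. The stretches are chr7:80115351-80115600 on the minus strand for Idh2, chrX:73786898-73787147 on the minus strand for Idh3g and chr11:6292329-6292578 on the plus strand for Ogdh, each read 5′ to 3′ along the gene.
Idh2: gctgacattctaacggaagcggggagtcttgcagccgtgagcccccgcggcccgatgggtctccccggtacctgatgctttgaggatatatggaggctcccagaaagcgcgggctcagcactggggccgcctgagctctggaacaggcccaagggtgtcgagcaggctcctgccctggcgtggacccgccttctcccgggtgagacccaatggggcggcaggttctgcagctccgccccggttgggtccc
Idh3g: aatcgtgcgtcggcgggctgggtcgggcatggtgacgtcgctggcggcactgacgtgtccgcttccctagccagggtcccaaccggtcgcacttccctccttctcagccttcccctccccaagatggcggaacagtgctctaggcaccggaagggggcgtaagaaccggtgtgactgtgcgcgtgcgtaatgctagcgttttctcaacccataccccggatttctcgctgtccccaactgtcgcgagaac
Ogdh: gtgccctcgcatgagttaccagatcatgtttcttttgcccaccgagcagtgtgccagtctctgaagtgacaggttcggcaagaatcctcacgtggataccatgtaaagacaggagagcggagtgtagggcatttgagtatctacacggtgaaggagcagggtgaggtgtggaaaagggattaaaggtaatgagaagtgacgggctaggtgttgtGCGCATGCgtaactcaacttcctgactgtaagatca
Both strands of each window were searched for GCGCATGC, the core of the site of NRF1, a regulator of nuclear genes for mitochondrial proteins, for CCGGAAGT, a site of ETS factors such as GABP, for TCAAGGTCA, the element of the estrogen-related receptors, and for 2 copies of AGGTCA with 1 base between them, the direct repeat that PPAR and RXR bind. The estrogen-related element contains AGGTCA, so it overlaps with one half-site of the repeat. The NRF1 core lay 29 to 36 bases before the printed start of Ogdh and was found in 2.71% of the 32851 promoters in the table. The ETS site was found in the window of Dlst, as ACTTCCGG on the coding strand from the first transcribed base on, and in 3.89% of all promoters. Neither the estrogen-related element, present in 0.423% of promoters, nor the direct repeat, present in 0.0396%, was in the window of any member. These are matches of letters in short windows and not bound sites.

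Levels were compared between members as TPM, which divides each count by the joint length of all annotated exons of the gene. That length was 9559 bases for Dlst and 2588 for Idh2, and it can exceed that of the transcripts present. The order of the members depends on it. By mean CPM, Dlst at 211 was near Mdh2 at 215 and Cs at 217, and above Idh2 at 165. Idh2, the NADP-dependent isocitrate dehydrogenase of mitochondria, had the highest mean level at 219 ± 40.6 TPM (SD, n = 12 tumors), followed by Mdh2, mitochondrial malate dehydrogenase, at 209 ± 53.5 TPM. Idh3b, Ogdh and Cs were close together at 133 ± 28.0, 131 ± 20.5 and 130.1 ± 25.8 TPM. Idh3g came next at 95.7 ± 25.9 TPM, then Dlst at 76.6 ± 17.6 TPM and Fh1 at 72.8 ± 17.2 TPM. Idh3a, the catalytic subunit of the NAD-dependent enzyme, was lowest at 20.0 ± 7.91 TPM, although the protein complex takes up more of this subunit than of the other two. Several neighbors in this order did not differ beyond their spread. Idh2 exceeded Mdh2 in 8 of 12 tumors, Idh3b exceeded Ogdh in 5, Ogdh exceeded Cs in 7, and Dlst exceeded Fh1 in 7. By contrast, Mdh2 exceeded Idh3b in 11 tumors, Idh3g exceeded Dlst in 9, and both Cs over Idh3g and Fh1 over Idh3a held in 12 of 12. The length of a gene is the same in every tumor, so these counts cannot test whether the order depends on it. In CPM the order of Dlst and Idh3g was the reverse, at 141 to 271 against 44.0 to 97.7. The relative spread of CPM over the tumors was smallest for Cs, at a coefficient of variation of 15.3%, and largest for Idh3a, at 37.5%. The lowest count of any member was 488, for Idh3a, where counting error alone gives 4.53%, so counting error was small beside the spread between tumors.

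**Figure D1:**
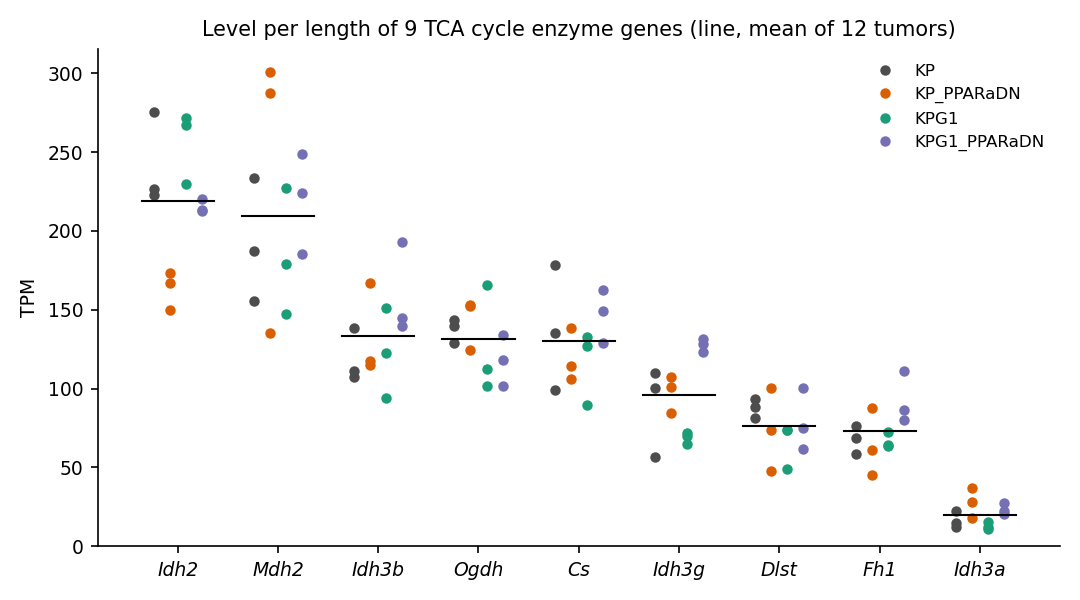
Level of each member in TPM (vertical axis, linear) in the 12 tumors, colored by group, with the mean of all tumors as a line. Idh2 and Mdh2 lie highest with means of 219 and 209 TPM, and Idh3a lies below Fh1 in every tumor.

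The isocitrate step was compared first. A pair of matrix enzymes oxidize isocitrate, the NADP-dependent Idh2, which can run in both directions and supplies NADPH, and the NAD-dependent complex of Idh3a, Idh3b and Idh3g, which runs forward as part of the cycle. Idh2 stood at 167, 182 and 176 CPM in the KP tumors and at 125, 110.0 and 134 CPM in the KP_PPARaDN tumors. It stood at 199.6, 239.6 and 178 CPM in the KPG1 tumors and at 154, 157 and 160.0 CPM in the KPG1_PPARaDN tumors. All 6 doxycycline tumors were thus below all 6 tumors on regular diet, a gap that ran from 160.0 to 167 CPM. In KP the log2 fold change was -0.50 ± 0.16 (SE, adjusted p = 0.327), and in KPG1 it was -0.39 ± 0.16 (adjusted p = 0.433). Averaged over the genotypes it was -0.45 ± 0.11, with a 95% interval of -0.69 to -0.20, an unadjusted p of 0.00194 and an adjusted p of 0.261 in edgeR. DESeq2 gave nearly the same value, -0.45, with an adjusted p of 0.0111, and Idh2 was the 1 member that any alternative called. With sex as a covariate the averaged value was -0.45, with the tumors of 1 mouse summed it was -0.42, and without the KP_PPARaDN library that was low in Ppara it was -0.45, each short of the threshold in edgeR.

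Idh3a stood at 21.6, 16.0 and 33.9 CPM in the KP tumors and at 40.0, 53.3 and 28.2 CPM in the KP_PPARaDN tumors. It stood at 22.3, 20.9 and 16.1 CPM in the KPG1 tumors and at 38.4, 31.1 and 29.8 CPM in the KPG1_PPARaDN tumors. The groups were apart in KPG1, whereas in KP the third control lay above the third doxycycline tumor. The log2 fold change was 0.76 ± 0.31 in KP (SE, adjusted p = 0.396) and 0.75 ± 0.31 in KPG1 (adjusted p = 0.435). Averaged over the genotypes it was 0.75 ± 0.22, with a 95% interval of 0.28 to 1.23 and an adjusted p of 0.299.

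Idh3g and Idh3b encode the regulatory subunits of the complex. Idh3g stood at 44.0, 76.0 and 81.0 CPM in KP, at 80.9, 77.2 and 70.7 CPM in KP_PPARaDN, at 50.6, 66.0 and 56.4 CPM in KPG1 and at 96.6, 97.7 and 96.7 CPM in KPG1_PPARaDN. The KPG1_PPARaDN tumors were the 3 highest of all 12, while the KP groups overlapped. The KPG1_PPARaDN tumors differed from each other by little, at 97.0 ± 0.600 CPM (SD, n = 3 tumors from 2 mice by label). Those at 96.6 and 96.7 CPM carried the same mouse label, so this small SD partly measures the spread within a mouse. The log2 fold change of Idh3g with doxycycline was 0.75 ± 0.22 in KPG1 (SE, adjusted p = 0.420) and 0.19 ± 0.22 in KP (adjusted p = 0.816). The difference between these effects was 0.56 ± 0.31 on the log2 scale, with a 95% interval of -0.11 to 1.24 and an adjusted p of 0.484, the highest interaction among the members. Idh3b ranged from 93.1 to 182 CPM, the groups overlapped in every comparison, and its log2 fold change averaged over the genotypes was 0.22 ± 0.16 (adjusted p = 0.682). Nop56, a ribosome biogenesis gene whose annotation overlaps Idh3b, was highest at 173 and 129.6 CPM in the second tumors of KP_PPARaDN and KPG1_PPARaDN, where Idh3b was highest as well at 162 and 182 CPM, and the part of shared reads was not tested.

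**Figure D2:**
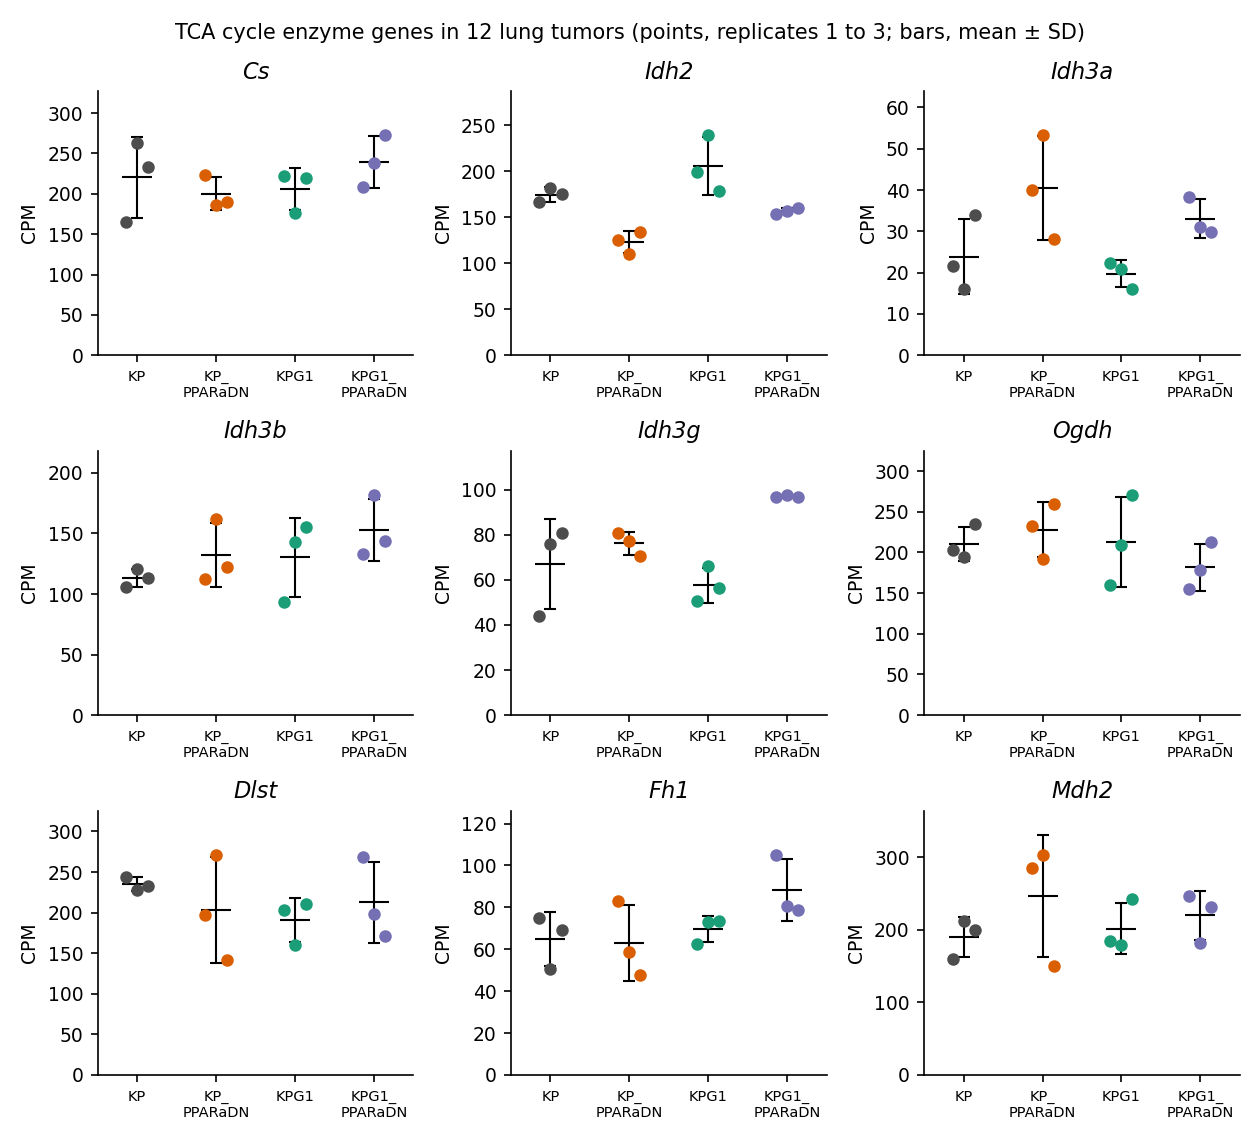
CPM of each member (vertical axes, linear, from 0) in the 4 groups; points are tumors, bars the mean and SD of 3 tumors. For Idh2 the doxycycline tumors lie between 110.0 and 160.0 CPM and those on regular diet between 167 and 239.6 CPM, and for Idh3g the KPG1_PPARaDN tumors lie between 96.6 and 97.7 CPM.

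Within a tumor, the balance of the isocitrate enzymes was described by the log2 ratio of their CPM, a quantity in which the depth of the library cancels. The ratio of Idh2 to Idh3a was 2.94 ± 0.57 (SD, n = 3) in KP, 1.65 ± 0.60 in KP_PPARaDN, 3.38 ± 0.19 in KPG1 and 2.25 ± 0.23 in KPG1_PPARaDN. Within each genotype the diets did not overlap. This restates the opposite differences of Idh2 and Idh3a given above and is no further support for them. The share of other gene pairs with ratios apart was not computed. Across the genotypes, the lowest tumor on regular diet, the third of KP at 2.37, lay just below the highest on doxycycline, the third of KPG1_PPARaDN at 2.42. The ratio of Idh3b to Idh3g averaged 0.81 ± 0.41 in KP, 0.77 ± 0.30 in KP_PPARaDN, 1.15 ± 0.29 in KPG1 and 0.64 ± 0.22 in KPG1_PPARaDN, and all groups overlapped, KPG1 and KPG1_PPARaDN only between 0.88 and 0.90. Ogdh and Dlst, which act in 1 complex, had ratios from -0.79 to 0.88 over the 12 tumors, and KP_PPARaDN alone spanned -0.50 to 0.88. Ratios of CPM from genes of different length do not compare their molar levels.

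**Figure D3:**
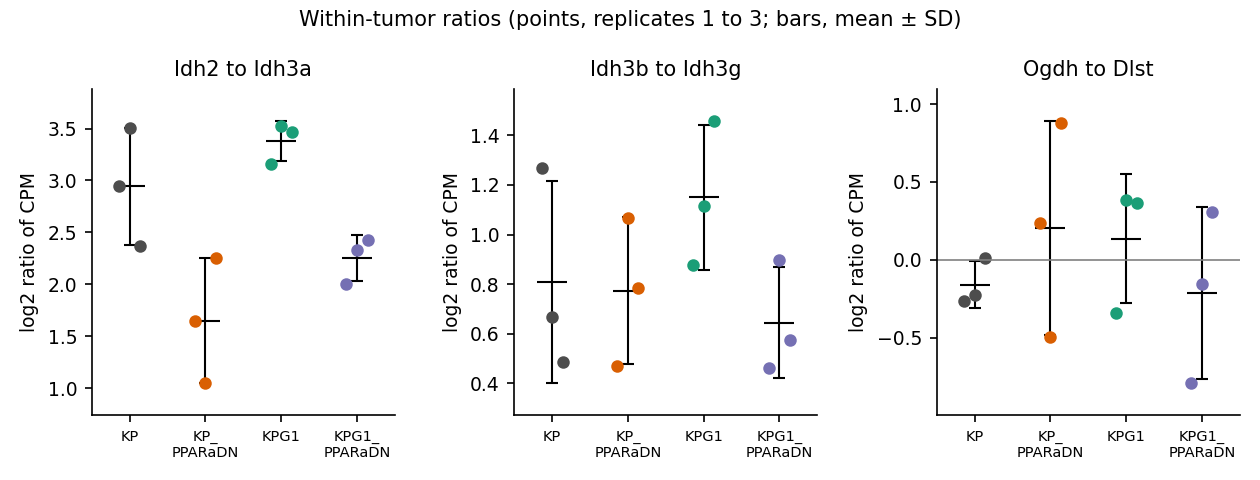
Within-tumor log2 ratios of CPM (vertical axes, each with its own range) for Idh2 to Idh3a, Idh3b to Idh3g and Ogdh to Dlst; points are tumors, bars the mean and SD of 3 tumors. The Idh2 to Idh3a means are 2.94 and 3.38 on regular diet and 1.65 and 2.25 on doxycycline, and the ratio of Ogdh to Dlst overlaps between all groups.

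Cs, citrate synthase, feeds the cycle and is the member with the smallest relative spread of CPM. It stood at 165, 263 and 234 CPM in KP, at 224, 187 and 190.3 CPM in KP_PPARaDN, at 222, 176 and 220.1 CPM in KPG1 and at 208, 238 and 273 CPM in KPG1_PPARaDN. The groups overlapped throughout, and the log2 fold change with doxycycline, averaged over the genotypes, was 0.04 ± 0.14 (SE, adjusted p = 0.953) with a 95% interval of -0.28 to 0.36. Csl, a paralog of Cs, was at no more than 0.616 CPM.

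Ogdh and Dlst encode the E1 and E2 components of the 2-oxoglutarate dehydrogenase complex, which makes succinyl-CoA. Ogdh was at 192 to 259 CPM in KP_PPARaDN and at 195 to 234 CPM in KP, and at 155 to 212 CPM in KPG1_PPARaDN and at 160.4 to 271 CPM in KPG1. Its log2 fold change with doxycycline was 0.11 ± 0.22 in KP and -0.23 ± 0.22 in KPG1, both within the spread. Dlst was at 244, 228 and 232 CPM in KP, a narrow range, but at 197, 271 and 141 CPM in KP_PPARaDN, which held both the highest and the lowest value of the 12 tumors. Its log2 fold change averaged -0.03 ± 0.18 (adjusted p = 0.974), and the 95% interval of -0.41 to 0.36 spans both signs.

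Fh1, fumarate hydratase, was at 75.0, 50.5 and 69.4 CPM in KP and at 83.2, 58.6 and 47.8 CPM in KP_PPARaDN. In KPG1 it was at 62.6, 73.2 and 73.6 CPM, below the 105, 80.5 and 78.7 CPM of KPG1_PPARaDN. This difference, 0.34 ± 0.24 on the log2 scale, had an adjusted p of 0.636 although the 3 tumors of each group were apart. Mdh2 was at 160.1, 213 and 199.6 CPM in KP and at 286, 304 and 149.7 CPM in KP_PPARaDN, so that 2 doxycycline tumors were above and 1 was below all controls. In KPG1 it was at 184, 179 and 243 CPM and in KPG1_PPARaDN at 247, 182 and 231 CPM. Averaged over the genotypes, its log2 fold change was 0.25 ± 0.19 (adjusted p = 0.706).

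Counted over the members, 0 of 9 passed the adjusted threshold with doxycycline in KP, where 0.00605% of the 16527 genes tested did, and 2 of 9 had an unadjusted p under 0.05, Idh3a higher and Idh2 lower, where 11.4% of all genes did. In KP, 1 of 9 had groups that did not overlap, against 13.3% of all genes. In KPG1, 0 of 9 passed the adjusted threshold, against 0.00605% of all genes, and 3 of 9 had an unadjusted p under 0.05, Idh3a and Idh3g higher and Idh2 lower, against 10.8%. There, 4 of 9 had groups that did not overlap, those of Idh3a, Idh3g and Fh1 higher and those of Idh2 lower, against 20.6% of all genes. Averaged over the genotypes, 0 of 9 passed the adjusted threshold, against 0.0182%, and 3 of 9 had an unadjusted p under 0.05, against 10.1%. The 6 doxycycline tumors did not overlap with the 6 on regular diet for 1 of 9 members, Idh2, and for 0.49% of all genes. The median log2 fold change of the members was 0.11 in KP, 0.22 in KPG1 and 0.15 averaged over the genotypes, where the median over all genes was -0.01, 0.02 and 0.01. DESeq2 called 0 of 9 members in KP and in KPG1 and 1 of 9 in the average, and limma voom called 0 of 9 in each.

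**Figure D4:**
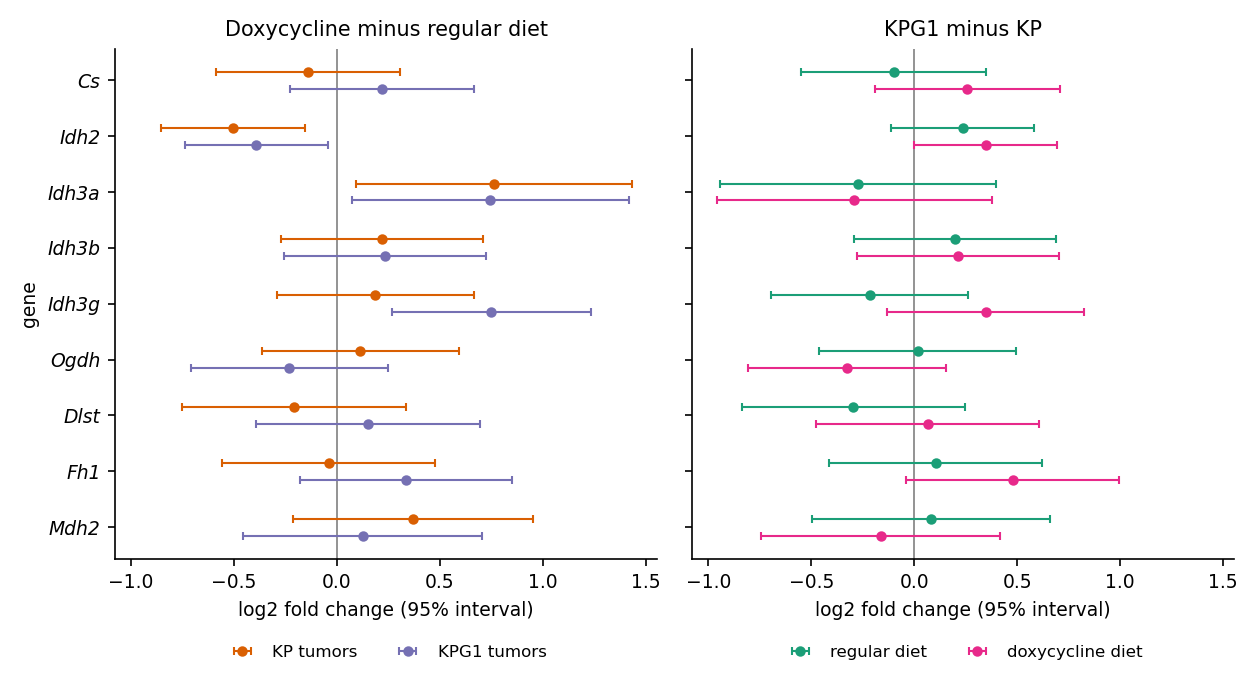
Log2 fold changes of the members (horizontal axes) with 95% intervals from edgeR, for doxycycline against regular diet on the left and KPG1 against KP on the right. The intervals of Idh2 lie below 0 and those of Idh3a above 0 with doxycycline in both genotypes, and no member passed the adjusted threshold.

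Summed markers of several cell types did not overlap between the diets in 1 genotype. Single genes were apart for 13.3% of all genes in KP and 20.6% in KPG1, and no such share was computed for sums. The 6 alveolar type 2 markers, surfactant genes among them, summed to 45471 to 73178 CPM in KPG1 and 24514 to 38770 CPM in KPG1_PPARaDN, without overlap, and to 26727 to 56626 CPM in KP and 22588 to 57118 CPM in KP_PPARaDN, with overlap. Averaged over the genotypes, 6 of 6 had a lower level on doxycycline, with a median log2 fold change of -0.80 and 0 of 6 past the threshold. The 5 alveolar type 1 markers summed to 1669 to 2321 CPM in KPG1 and 596 to 1026 CPM in KPG1_PPARaDN, but to 177 to 2211 CPM in KP and 1416 to 2733 CPM in KP_PPARaDN. The 3 mesothelial markers summed to 158 to 295 CPM in KP_PPARaDN and to 2.79 to 94.5 CPM in the other groups, and 1 of them, Wt1, had no count in KPG1_PPARaDN. The 5 erythroid markers, mostly hemoglobin genes, summed to 319 to 765 CPM in KP and 849.9 to 1320 CPM in KP_PPARaDN, without overlap, and to 629 to 962 CPM in KPG1 and 731 to 1421 CPM in KPG1_PPARaDN. On doxycycline 4 of 5 had a higher level averaged over the genotypes, with a median log2 fold change of 1.06, and 1 of 5 passed the threshold, Hba-a2, whose reads could be split with its near-identical copy Hba-a1. The 6 fibroblast markers summed to 113 to 241 CPM in KP and 266 to 529 CPM in KP_PPARaDN, without overlap, with a median log2 fold change of 1.17 and 0 of 6 past the threshold. In KPG1 their sums overlapped, and 5 of 6 had a lower level on doxycycline, with a median of -0.16. Of the 5 endothelial markers, 5 had a lower level on doxycycline averaged over the genotypes, with a median of -0.28 and 0 past the threshold. In KP, though, 4 of these 5 had a higher level. The part of these markers in the levels of Idh2, Idh3a and Idh3g was not tested. The 3 club cell markers summed to 30.7 to 376 CPM over all tumors, with overlap between the diets in both genotypes. Averaged over the genotypes 3 of 3 had a lower level on doxycycline, with a median log2 fold change of -0.75 and 0 past the threshold. Within KPG1, though, 2 of 3 had a higher level. The 6 markers of cycling cells summed to 256 to 556 CPM over all tumors, and their groups overlapped.

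The genotypes were compared next, to see whether tumors of mice with floxed Slc2a1 alleles differed in the cycle. These comparisons use the same tumors as those of the diets, so their values are not independent of them. On regular diet, 0 of 9 members passed the adjusted threshold and 0 of 9 had an unadjusted p under 0.05, where 0.0363% and 6.23% of all genes did. Dlst was the 1 member whose groups did not overlap, lower in KPG1 at 203, 160.2 and 211 CPM than in KP, where 9.95% of all genes were apart, and its log2 fold change was -0.30 ± 0.25 (SE, adjusted p = 0.855). With sex as a covariate it turned to 0.12, but the sex effect in that fit came from the doxycycline tumors alone. On regular diet sex and genotype still cannot be told apart. Idh2 was higher in KPG1 by 0.24 ± 0.16 on the log2 scale, and its groups overlapped. On doxycycline, 0 of 9 members passed the adjusted threshold, against 0.0303% of all genes, and 1 of 9 had an unadjusted p under 0.05, against 9.69%. This was Idh2, which was higher in KPG1_PPARaDN than in KP_PPARaDN by 0.35 ± 0.16 (unadjusted p = 0.0496, adjusted p = 0.513). Idh2 and Idh3g were the 2 members whose groups did not overlap there, both higher in KPG1_PPARaDN, where 17.6% of all genes were apart. Fh1 had the highest log2 fold change of the members, 0.48 ± 0.24 (adjusted p = 0.531), with overlap, and Ogdh the lowest, -0.33 ± 0.22 (adjusted p = 0.624).

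Averaged over the diets, 0 of 9 members passed the adjusted threshold between the genotypes, against 0.0484% of all genes, and 1 of 9, Idh2, had an unadjusted p under 0.05, against 4.53%. Its log2 fold change was 0.29 ± 0.11, with a 95% interval of 0.05 to 0.54, an unadjusted p of 0.0239 and an adjusted p of 0.976. No member had 6 KPG1 tumors apart from 6 KP tumors, where 0.188% of all genes did. Idh2 thus ranked KP_PPARaDN, KPG1_PPARaDN, KP and KPG1 by mean, at 123 ± 12.3, 157 ± 3.24, 175 ± 7.82 and 206 ± 31.2 CPM (SD, n = 3 each). KP_PPARaDN, KPG1_PPARaDN and KP did not overlap with each other, and KP overlapped with KPG1. In the test of whether the diet acted differently in the genotypes, 0 of 9 members passed the adjusted threshold, where 0.0% of all genes did, and 0 of 9 had an unadjusted p under 0.05, where 11.8% did. For Idh2 this difference was 0.11 ± 0.22 and for Idh3a -0.02 ± 0.43 on the log2 scale, with 95% intervals of -0.38 to 0.60 and -0.96 to 0.93. DESeq2 and limma voom called 0 of 9 members in each of these comparisons.

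The number of members above their own median of the 12 tumors ran from 1 in the third KP_PPARaDN tumor to 7 in the third KPG1_PPARaDN tumor. The second KP_PPARaDN tumor held the highest Idh3a, Dlst and Mdh2 and the lowest Idh2 of all. The third KP_PPARaDN tumor held the lowest Dlst, Fh1 and Mdh2, so for Dlst and Mdh2 these tumors of 1 group were at opposite ends. The 3 KPG1_PPARaDN tumors had 6, 5 and 7 members above the median, the 3 KPG1 tumors 2, 3 and 6.

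The remaining 10 genes of the cycle were read in the same way, and 0 of 10 passed the adjusted threshold in any comparison. Averaged over the genotypes, 7 had a higher and 3 a lower level on doxycycline, with a median log2 fold change of 0.05. Sdhd, a membrane anchor of succinate dehydrogenase, was at 84.8, 88.4 and 78.8 CPM in KP and 117, 109 and 99.4 CPM in KP_PPARaDN, without overlap. It was at 89.4, 107 and 93.5 CPM in KPG1 and 135, 122 and 109.7 CPM in KPG1_PPARaDN, again without overlap, and its averaged log2 fold change was 0.35 ± 0.11 (SE, adjusted p = 0.328). Sdhb, the iron-sulfur subunit, was higher on doxycycline in KP by 0.38 ± 0.21 and Sdha, the flavoprotein subunit, lower by a log2 fold change of -0.31 ± 0.23, both without overlap, while in KPG1 their groups overlapped, at 0.15 ± 0.21 for Sdhb and 0.17 ± 0.23 for Sdha. Dld, the E3 component that the 2-oxoglutarate and pyruvate complexes share, had the highest value in KPG1 at 0.38 ± 0.27 (adjusted p = 0.637).

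Of the 12 genes of pyruvate entry, 0 passed the adjusted threshold in any comparison. Pdha1, the E1 alpha subunit of pyruvate dehydrogenase, was at 79.1, 79.3 and 132 CPM in KP and 193, 149 and 176 CPM in KP_PPARaDN, without overlap, with a log2 fold change of 0.83 ± 0.23 (SE, adjusted p = 0.305). Pdk4, a kinase that inactivates this enzyme and a known PPARα target, had a log2 fold change of -1.55 ± 1.18 in KP and 1.61 ± 1.19 in KPG1, with overlap in both. Among 14 genes of anaplerosis and of aspartate or glutamate exchange, 0 passed. Pcx, pyruvate carboxylase, which makes oxaloacetate, was at 111, 147 and 173 CPM in KPG1 and 33.0, 43.0 and 46.7 CPM in KPG1_PPARaDN, with a log2 fold change of -1.81 ± 0.59 (adjusted p = 0.420), but in KP its groups overlapped. Got1, the cytosolic aspartate aminotransferase, had a log2 fold change with doxycycline of 1.23 ± 0.48 in KP (adjusted p = 0.384) and -0.51 ± 0.48 in KPG1 (adjusted p = 0.722), with overlap in both. The 5 cytosolic counterparts held 0 calls, and all 5 had an averaged log2 fold change below 0, from -1.32 for Acss2, which makes acetyl-CoA from acetate, to -0.01. The direction was not uniform in KP, where 1 of 5 had a higher level on doxycycline, at a log2 fold change of 0.34 with groups apart. Acss2 was at 32.2, 129 and 17.2 CPM in KP, with 1 tumor far above the others, and at 7.61, 12.9 and 17.4 CPM in KP_PPARaDN, with overlap. In KPG1 its log2 fold change was -0.41 ± 0.77 (adjusted p = 0.869), again with overlap. Of the 8 mitochondrial carriers, 7 had an averaged value above 0 and 0 passed, with Slc25a1, the citrate carrier, at 0.68 ± 0.18 in KP (adjusted p = 0.305). Its mean was 73.2 CPM in KPG1 and 71.1 CPM in KPG1_PPARaDN, so no rise was seen there. For the difference between the diet effects, 0 of 8 carriers passed the threshold, with a smallest adjusted p of 0.365. A rise limited to KP is therefore not established. Among 15 genes of mitochondrial mass and biogenesis, 9 had a higher and 6 a lower averaged value, with a median of 0.04 and 0 calls. In KP the extremes were Esrra, at 0.72 ± 0.34, and Polg, the mitochondrial DNA polymerase, at -0.64 ± 0.21. Esrra had a mean of 33.7 CPM in KPG1 and a lower one of 28.8 CPM in KPG1_PPARaDN, and Polg of 82.8 and 74.7 CPM.

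**Figure D5:**
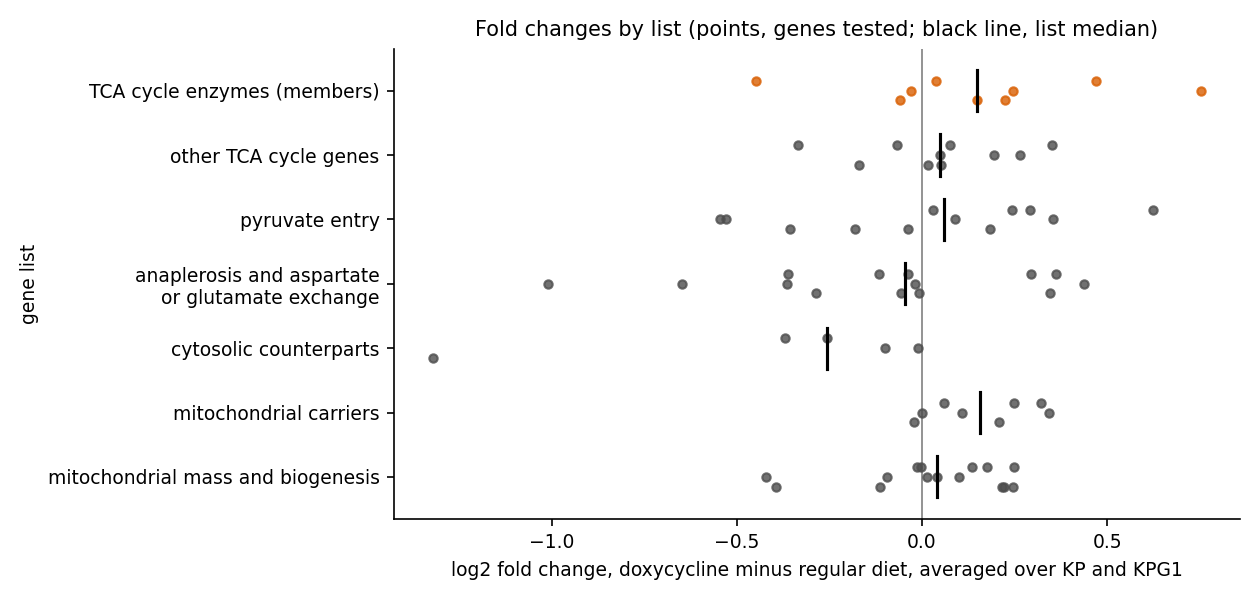
Log2 fold change of doxycycline against regular diet, averaged over the genotypes (horizontal axis), for each tested gene of the members and of 6 related lists, with list medians as black lines. The members run from -0.45 for Idh2 to 0.75 for Idh3a around a median of 0.15, and the cytosolic counterparts have the lowest median, -0.26.

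The pattern of the members was summarized by the mean of their standardized log2 CPM in each of the 12 tumors and set beside 11584 other genes with a mean of at least 5 CPM. As a description over tumors that share libraries and depth, the most similar genes were Pabpc4, Ctxn1, Mrto4, Mad1l1, Phb, C1qbp, Ywhae, Gm11451, Nme1 and Nudc, with Pearson coefficients from 0.93 down to 0.88. The least similar were Tapbpl, Mpc1, Gm608, Cxcl12 and Sod2, from -0.90 to -0.88. Mpc1 belongs to the list of pyruvate entry and encodes a subunit of the mitochondrial pyruvate carrier. It was at 19.8, 12.1 and 11.9 CPM in KP, 9.29, 7.17 and 16.4 CPM in KP_PPARaDN, 19.6, 13.6 and 8.82 CPM in KPG1 and 6.04, 9.54 and 10.7 CPM in KPG1_PPARaDN. The tumors with the lowest member means, the third of KP_PPARaDN and the first of KP and KPG1, were the 3 with the highest Mpc1. Mpc1 was picked by its coefficient with this same mean over the same tumors, so this restates the ranking and is no further support. How extreme the coefficients of 11584 genes become by chance was not computed.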

How the data were processed

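Libraries of 12 mouse lung tumors, depleted of CD45-positive cells, were made with a stranded TruSeq mRNA kit, and groups were taken from the labels. According to the submitters' processing notes, the authors used bcl2fastq 2.17, cutadapt 1.4.2, HISAT2, featureCounts 1.4.4, edgeR and build mm10. They deposited unnormalized read counts per gene, as 1 file per tumor and as a combined table, and the 12 tumor files equalled that table. The annotation and the strand setting of counting are not given in the sources used here. The authors also deposited log2 values, which were not used here.

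The counts were tested with edgeR 4.0.16 in R 4.3.3 (TMM, filterByExpr by group, glmQLFit and glmQLFTest), with the 12 tumors in one fit of 4 groups, 8 residual degrees of freedom and Benjamini-Hochberg adjustment over 16527 genes at a threshold of 0.05. Every adjusted p-value is from this test unless another tool is named. SE is the log2 fold change over the square root of F. CPM use TMM-scaled library sizes. Exon lengths for TPM and positions came from GENCODE M21, which held 96.4% of the gene identifiers and 99.7% of the counts, and promoters from RefSeq (GRCm38.p6). Total counts of 25263794 to 32654223 leave little counting error, so the precision is set by the spread between tumors. Several tumors share a mouse, so p-values partly measure the spread within mice. All 9 members are named. From each related list, the highest and the lowest log2 fold change in each comparison of 2 groups were open to naming, among genes with a mean of at least 5 CPM, as were the 10 genes most and the 5 least similar to the members. The values of 1 gene that this rule names are left out. The members and lists were chosen with earlier results of these data known. Alternatives were RLE normalization, no filter on low counts, DESeq2 1.42.0, limma 3.58.1 voom, the replicate number as a block, sex as a covariate, tumors of 1 mouse summed and leaving out each tumor. The scripts were tested on simulated data. Over 18 pairs of tumors with the same replicate number, deviations from the group means correlated at -0.19 to 0.13, so the numbers were not taken to pair tumors.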

Additional observations from a re-analysis of the deposited data

How the results depend on the processing

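No member passed the adjusted threshold in any of the 7 comparisons under 18 of the 19 alternatives, and DESeq2 called 1, Idh2 for doxycycline averaged over genotypes. The averaged log2 fold change kept its sign in all 19 alternatives for Idh2, from -0.51 to -0.38, for Idh3a, from 0.63 to 0.92, and for Idh3g, from 0.35 to 0.55.

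Counts of genes called are few in edgeR and depend on the tool; the order here is doxycycline in KP, in KPG1, KPG1 against KP on regular diet, on doxycycline, doxycycline averaged over genotypes, KPG1 against KP averaged over diets, and the difference between the diet effects. They were 1, 1, 6, 5, 3, 8 and 0 in the edgeR fit, 372, 211, 60, 155, 288, 39 and 286 with DESeq2, 2, 1, 5, 5, 5, 12 and 0 without a filter on low counts, 1, 0, 5, 5, 3, 8 and 0 with limma voom, 0, 1, 2, 2, 3, 9 and 0 with sex as a covariate and 0, 0, 2, 2, 3, 3 and 0 with tumors of 1 mouse summed. With the replicate block they were 0, 2, 4, 3, 4, 5 and 0, with no member called, and the numbers do not pair the tumors. Leaving out 1 tumor gave 0 to 1, 0 to 2, 2 to 6, 2 to 10, 2 to 13, 6 to 11 and 0 to 0, with 10 without the second KP tumor and 13 without the third KP_PPARaDN tumor as the highest. The cause of these differences was not tested.

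Of 63 log2 fold changes of members, 25 changed sign under some alternative, the largest of them 0.36 in size, and 38 did not. With sex as a covariate, the log2 fold change turned to Dlst 0.037 for doxycycline in KP, Dlst -0.12 and Mdh2 -0.18 for doxycycline in KPG1, Idh3a 0.12, Ogdh -0.14 and Dlst 0.12 for KPG1 against KP on regular diet, Dlst -0.038 for KPG1 against KP on doxycycline, Dlst 0.042 and Mdh2 0.11 for KPG1 against KP averaged over diets and Idh3b -0.031 and Dlst -0.16 for the difference between the diet effects. The sex effect in that fit came from the doxycycline tumors alone, because each group on regular diet was of 1 sex. These values therefore do not separate sex from genotype on regular diet. With tumors of 1 mouse summed, the log2 fold change turned to Mdh2 -0.016 for doxycycline in KPG1 and Idh3a 0.14 and Idh3b -0.021 for the difference between the diet effects. With limma voom, the log2 fold change turned to Ogdh -0.011 for KPG1 against KP on regular diet. With the replicate block, the log2 fold change turned to Ogdh -0.0028 for KPG1 against KP on regular diet. With RLE normalization, the log2 fold change turned to Idh3b -0.0068 for the difference between the diet effects. Without a filter on low counts, the log2 fold change turned to Idh3b -0.030 for the difference between the diet effects. With DESeq2, the log2 fold change turned to Idh3b -0.0069 for the difference between the diet effects. Leaving out 1 tumor gave ranges across 0. For doxycycline in KP, the range was Cs -0.31 to 0.0057, Idh3g -0.041 to 0.35 and Fh1 -0.29 to 0.13. For doxycycline in KPG1, the range was Dlst -0.051 to 0.28. For KPG1 against KP on regular diet, the range was Cs -0.27 to 0.046, Idh3a -0.49 to 0.069, Ogdh -0.17 to 0.19, Fh1 -0.049 to 0.22 and Mdh2 -0.048 to 0.17. For KPG1 against KP on doxycycline, the range was Dlst -0.14 to 0.33 and Mdh2 -0.42 to 0.015. For doxycycline averaged over genotypes, the range was Cs -0.046 to 0.11, Ogdh -0.14 to 0.029 and Dlst -0.16 to 0.074. For KPG1 against KP averaged over diets, the range was Cs -0.0059 to 0.15, Idh3g -0.049 to 0.14, Dlst -0.22 to 0.017 and Mdh2 -0.17 to 0.049. For the difference between the diet effects, the range was Idh2 -0.016 to 0.22, Idh3a -0.36 to 0.23 and Idh3b -0.18 to 0.19. Depth is not the limit for the members, whose lowest count was 488.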
